A study of Drosophila melanogaster with 56 samples.

Results

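The proteasome genes of Drosophila melanogaster were followed in 4 body parts at 0, 24 and 48 h of fasting. The members are the probe sets whose gene symbol begins with Prosalpha, Prosbeta, Rpn or Rpt followed by a digit. The array held 11982 genes with a probe set of their own. The rule gave 41 probe sets. Of these, 26 probe sets each measured 1 subunit of the general proteasome, and 14 measured a paralog. The paralog symbols end in T, R, R1 or R2, and those ending in a plain R were put apart in the same way. The remaining probe set is shared by Prosalpha1 and Prosalpha1R, which cannot be told apart here, so it is described on its own. Prosbeta1, Rpn9, Rpn10, Rpt1, Rpt6 and Rpt6R were not analysed here.

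Flies came from 6 pools. By the design, flies of each pool were taken unfasted (0 h) and after 24 and 48 h without food. They were separated into the antenna, the palp with the proboscis (palp hereafter), the head stripped of its chemosensory organs, and the headless body. Antenna was measured on 4, 5 and 5 arrays at the successive times, and each other part on 5, 5 and 4. The labels used here give no strain, sex or age, and no flies fed throughout were sampled at 24 or 48 h, so fasting and elapsed time cannot be told apart. Total RNA was amplified and hybridised to 56 one-colour Affymetrix arrays, 1 per sample.

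The proteasome is the main protease of the cytosol and nucleus, and it degrades proteins that carry ubiquitin chains. Its core is a barrel of alpha rings, which gate the entry, and beta rings, which hold the active sites in Prosbeta1, Prosbeta2 and Prosbeta5. A regulatory particle caps the core. Its base has the Rpt ATPases, which unfold the substrate, and the Rpn1, Rpn2 and Rpn13 subunits, among which Rpn1 and Rpn13 bind ubiquitin. Its lid has further Rpn subunits, among them Rpn11, which removes the ubiquitin chain. Subunits are needed together in fixed proportion, and several core subunits have additional gene copies that are used in the Drosophila testis.

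Values are log2 signals, so a difference of 1 is a doubling of the scale. All arrays had been scaled to a shared distribution with a median of 4.04, so a change of all transcripts together cannot be read from them. In bulk tissue, fewer cells of a type and less RNA per cell cannot be told apart. A gene "rose" or "fell" where its adjusted p in limma was below 0.05, with Benjamini-Hochberg adjustment over every feature tested in that comparison. Counts at an unadjusted p under 0.05 in limma have no share of all features at that threshold beside them, so they are not read as results. A value with ± after a difference is its standard error, and after a mean it is the SD. A feature was tested in a part when it reached a log2 signal of 4 on at least 4 of its arrays. All 26 subunits lay above this on every array, from 7.76 to 13.7.

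Marker transcripts matched the labelled parts, with the odorant receptor markers of the palp below 4 on every head and body array and the photoreceptor markers highest in head. In body at 0 h, the testis and accessory gland markers were high and all 4 measured ovary markers were below 4. Gut markers differed widely among head arrays at 0 h, where their summed log2 signal ran from 10.5 to 54.9, and lay between 43.7 and 52.0 at 24 h. Gut sums were also high on replicate 2 of antenna (50.3) and palp (50.1) at 0 h, and testis sums on replicate 1 of antenna (62.7) and replicate 2 of palp (69.6) at 24 h. Counts without these 4 arrays and head replicate 2 at 0 h, the 5 set-aside arrays, stand beside the results they touch.

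In unfasted flies the subunits were higher in antenna, palp and body than in head. Of the 26 subunits, 24 were higher in antenna and 25 in palp, against 26.4% and 30.7% of all features. In body 18 were higher and 1 was lower, against 31.4% and 54.5% of all features. The median difference of the subunits from head was 0.68 in antenna, 0.59 in palp and 0.50 in body, and the median over all features was 0.00, 0.01 and -0.55. Without the set-aside arrays the counts were 23 and 24 higher in antenna and palp. Under cyclic loess scaling the median of all features between body and head moved by 0.81, and 25 subunits were then higher in body and 0 lower.

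The mean log2 signal of the 26 subunits at 0 h was 12.16 ± 0.04 (SD, n = 4) in antenna, 12.08 ± 0.09 (n = 5) in palp, 12.00 ± 0.08 (n = 5) in body and 11.44 ± 0.12 (n = 5) in head. The arrays of antenna and palp overlapped in this mean, as did those of palp and body, and every head array lay below every other array.

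The alpha ring stood furthest from head, with medians of 1.02 in antenna, 0.96 in palp and 1.14 in body. In body the beta ring had a median of 0.68, but the base ATPases only 0.07, and of these 4 only Rpt2 was higher. The count of base ATPases depended on the scaling. Under cyclic loess most of them were higher in body, by the subunit count given above. RNA quality also differed: the signal at the 3′ end of control transcripts less that at the 5′ end, which grows as RNA is truncated, ran from 1.70 to 2.04 in body and from 2.67 to 5.18 in head at 0 h, and its part in these differences was not tested. Prosalpha5 measured 12.55, 12.79, 12.67 and 12.97 in antenna at 0 h, and 11.23, 11.18, 11.46, 11.17 and 10.66 in head. No antenna array came near a head array, and the difference was 1.61 ± 0.12 (adjusted p = 2.91e-09 in limma). In antenna, Prosbeta6 (1.22 ± 0.20), Prosalpha3 (1.13 ± 0.13) and Prosalpha4 (1.10 ± 0.21) followed.

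Prosalpha4 was the subunit with the largest difference from head in palp (1.43 ± 0.20) and body (1.58 ± 0.20). In palp, Prosalpha5 (1.10 ± 0.11), Prosalpha3 (1.03 ± 0.12) and Prosbeta6 (0.97 ± 0.19) were next. In body, Prosalpha7 (1.47 ± 0.11), Prosbeta7 (1.45 ± 0.12) and Prosbeta6 (1.28 ± 0.19) were next. Rpn5, a lid subunit, was the one that was lower in body than in head, by -0.34 ± 0.14 (adjusted p = 0.033 in limma).

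**Figure D1:**
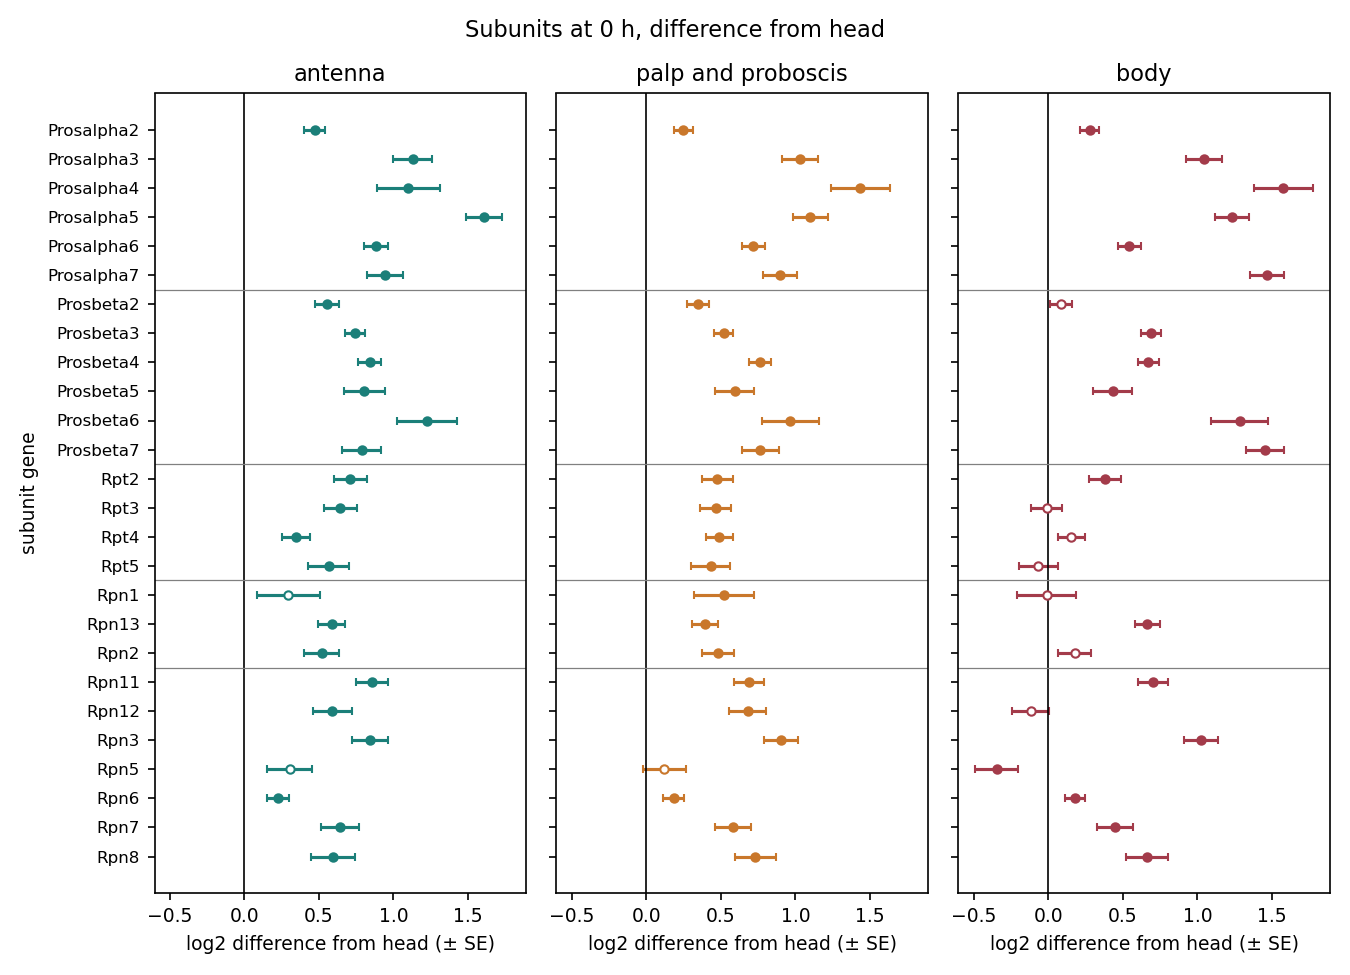
Log2 difference of each subunit from head at 0 h (horizontal axis, ± SE from limma) in antenna, palp and body, with subunits grouped from top to bottom as alpha ring, beta ring, base ATPase, base non-ATPase and lid. Filled points are past an adjusted p of 0.05, which 24, 25 and 19 of the 26 subunits are; in body the core rings lie to the right of most base subunits.

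More subunits fell in body than in any other part, by counts from separate fits. The 48 h median of the 12 core subunits was -0.30 in body and -0.36 in head, with 9 and 3 of them called lower. In the test of the 48 h change against head, 2 core subunits changed further down in body and 0 further up. Of all features 9.21% changed further down. For the regulatory particle the medians were -0.27 in body and -0.01 in head. In body at 48 h of fasting, 19 of the 26 subunits had fallen and 0 had risen, when 21.0% of all features fell. The median of the subunits was -0.28 and that of all features 0.10. At 24 h, 9 had fallen (12.0% of all features fell), with a median of -0.19 against 0.06, and 25 of the 26 differences were below 0. From 24 to 48 h no subunit passed the test in limma (6.44% of all features did), 4 had an unadjusted p under 0.05, and the median was -0.08. Without replicate 3 at 24 h or at 48 h, 1 subunit passed.

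The mean of the 26 subunits ran from 11.90 to 12.09 on the body arrays at 0 h, from 11.67 to 11.86 at 24 h and from 11.62 to 11.76 at 48 h. No array of 24 or 48 h reached the lowest array of 0 h.

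**Figure D2:**
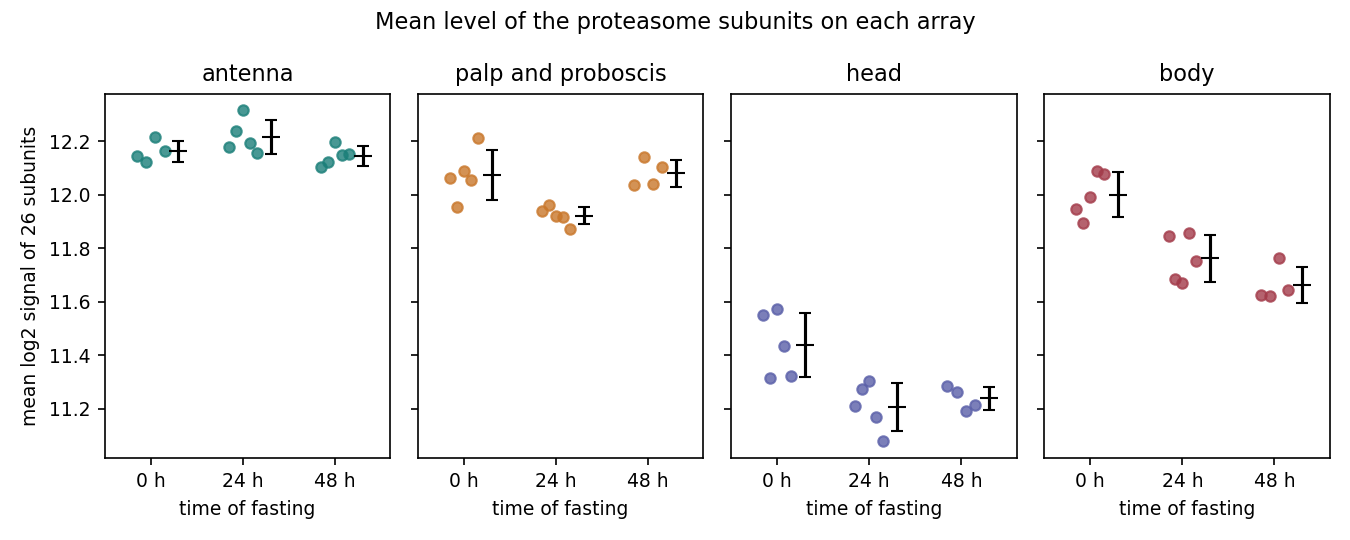
Mean log2 signal of the 26 subunits on each array (points) by body part and time of fasting, with the group mean ± SD beside the points. In body all arrays at 24 and 48 h lie below the 0 h arrays (11.90 to 12.09), in antenna the groups overlap, and in palp the 24 h arrays are the lowest group.

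Prosalpha4, an alpha ring subunit, had the largest fall. In body it measured 10.02, 9.72, 9.88, 10.06 and 10.06 at 0 h, 9.37, 8.72, 8.30, 9.33 and 8.80 at 24 h, and 8.35, 8.79, 8.78 and 8.40 at 48 h. All arrays of both later times were below all arrays of 0 h. It fell by 1.04 ± 0.19 at 24 h (adjusted p = 0.00196 in limma) and by 1.37 ± 0.20 at 48 h (adjusted p = 0.000189), which is 2.58-fold lower. Both calls held in every alternative tried and without any single array.

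Rpn12, a lid subunit that in yeast is the last to join the lid, came next. It measured 10.82, 10.64, 10.82, 11.25 and 11.13 at 0 h, 10.81, 10.17, 10.24, 10.58 and 10.42 at 24 h, and 9.94, 10.03, 10.30 and 9.89 at 48 h. The 24 h arrays overlapped those of 0 h, and the 48 h arrays were all lower. The fall was 0.49 ± 0.15 at 24 h (adjusted p = 0.0336 in limma) and 0.89 ± 0.16 at 48 h (adjusted p = 0.000753). The call at 24 h was lost when replicate 2, 3 or 5 at 24 h, or 4 or 5 at 0 h, was left out, with an adjusted p of up to 0.0884, and when dim probe sets were kept (0.0626).

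Both measured catalytic subunits of the core fell in body at 48 h. Prosbeta2, which has the trypsin-like activity, measured 12.79, 12.62, 12.68, 12.86 and 12.89 at 0 h and 12.15, 12.01, 12.42 and 12.11 at 48 h. The groups did not overlap, and the fall was 0.60 ± 0.11 (adjusted p = 0.000911 in limma). At 24 h Prosbeta2 fell by 0.35 ± 0.10 (adjusted p = 0.0281), a call lost without replicate 1, 4 or 5 at 0 h or 2, 3 or 5 at 24 h (adjusted p up to 0.0671).

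Prosbeta5, which has the chymotrypsin-like activity, measured 12.61, 12.51, 12.62, 12.69 and 12.68 at 0 h and 12.15, 12.10, 12.43 and 12.21 at 48 h. Its groups did not overlap either, and it fell by 0.40 ± 0.10 (adjusted p = 0.00649 in limma). The difference at 24 h, -0.26 ± 0.09, did not pass (adjusted p = 0.0665).

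Prosalpha6 measured 12.65, 12.49, 12.56, 12.75 and 12.69 at 0 h and 12.07, 11.98, 12.25 and 11.91 at 48 h, without overlap. Prosalpha6 fell by 0.58 ± 0.10 (adjusted p = 0.000651 in limma). Prosbeta4, a structural beta subunit, fell by 0.34 ± 0.09 at 24 h (adjusted p = 0.0161) and by 0.54 ± 0.09 at 48 h (adjusted p = 0.000619). The deubiquitinase Rpn11 fell by 0.25 ± 0.08 at 48 h (adjusted p = 0.0249), with arrays that overlapped: 12.95, 12.65, 12.75, 12.98 and 12.85 at 0 h against 12.66, 12.50, 12.60 and 12.60.

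The fall in body crossed the classes. At 48 h it took 4 of 6 alpha ring subunits (median -0.27), 5 of 6 of the beta ring (-0.36), all 4 base ATPases (-0.35) and 5 of 7 lid subunits (-0.25). Of the base non-ATPases 1 of 3 fell (median -0.02). That one was Rpn1, by 0.47 ± 0.16; Rpn2 (-0.02) and the ubiquitin receptor Rpn13 (0.04) did not pass. Of the lid, Rpn6 (0.01) and Rpn8 (0.00) did not pass.

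The 48 h count ranged from 14 to 20 with any 1 array left out, and was 12 in a single fit of all parts. It was also 12 with that RNA quality measure (the 3′ minus 5′ signal) as a covariate. The 24 h count was 2 without replicate 2 or 5 at 24 h or replicate 4 or 5 at 0 h, and 4 without replicate 3 of either time. It was 17 under cyclic loess scaling and 17 with array weights. No share of all features is given for these other fits. In the same bodies all 4 accessory gland markers fell, by 0.81 to 1.36, and 5 of 7 testis markers rose (0.16 to 0.45 over the 7); their part in the result was not tested. Replicate 1 at 48 h had a summed ovary marker signal of 26.2, from Yp1 (13.3) and osk (8.79), against at most 8.34 on the other body arrays at 48 h. Without it 17 subunits fell at 48 h.

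**Figure D3:**
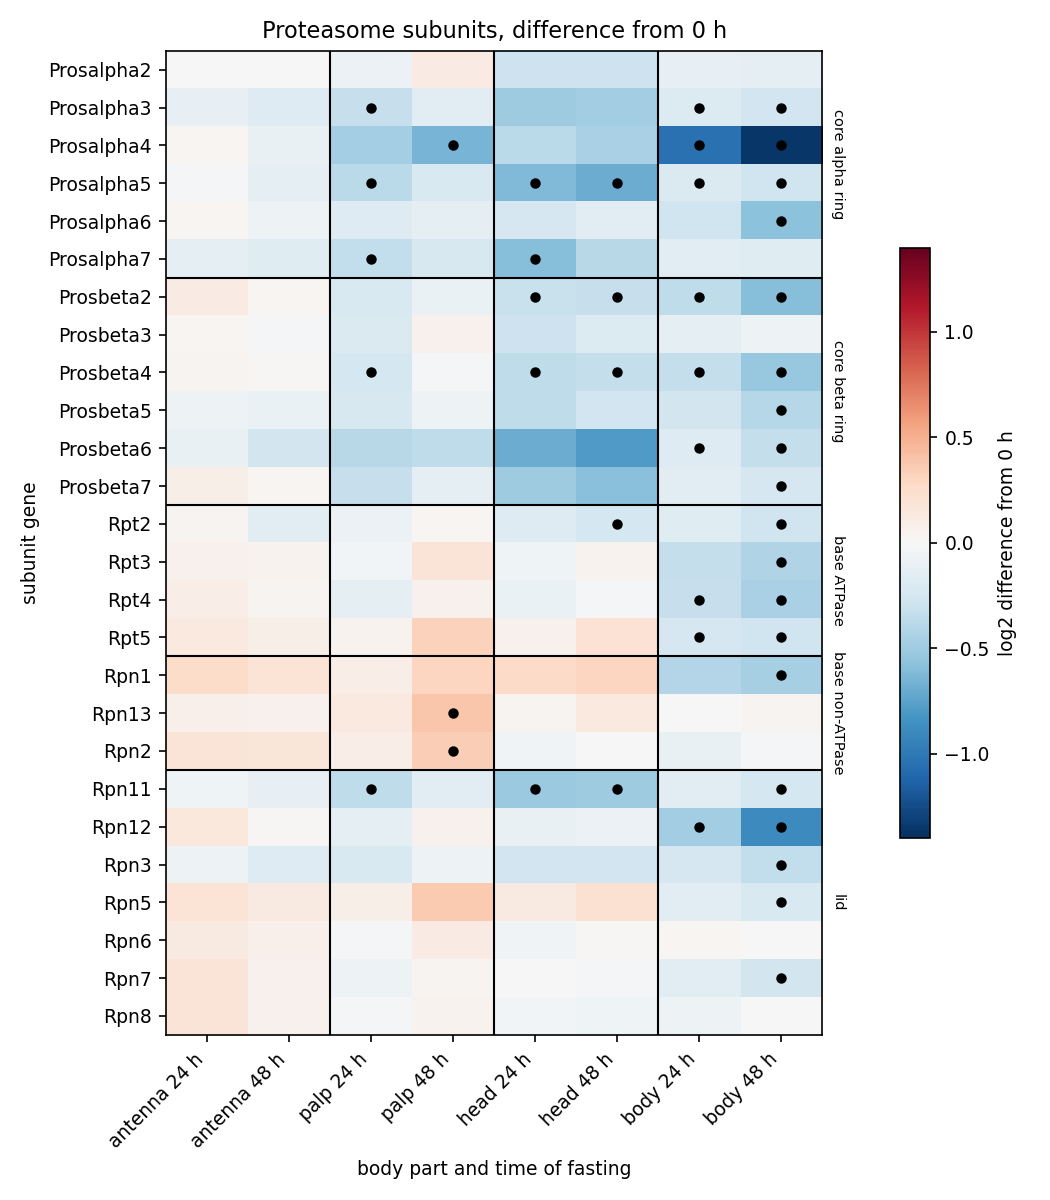
Log2 difference from 0 h for each of the 26 subunits (rows, grouped by class) in each part and time (columns), blue for lower and red for higher; black dots are past an adjusted p of 0.05. The body at 48 h has 19 dots, all lower, with Prosalpha4 at -1.37 and Rpn12 at -0.89; antenna has 0 dots.

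Of the paralogs, 5 rose in body at 48 h and 8 did not pass. This count is near the share of all features that rose (29.8%). Of the 14, 13 reached a signal of 4 on every body array, and Prosbeta4R2 reached it on none. Outside body the paralogs lay below 4 on every array, except Prosalpha4T2 on 1 palp array at 24 h (4.77) and 1 at 48 h (4.25). These were replicate 2 at 24 h and replicate 3 at 48 h, which had the highest testis marker sums of their groups (69.6 and 36.7). The part of testis transcripts in these values was not tested. Levels in body at 0 h ran from 7.42 (Prosalpha4T1) to 10.58 (Rpn12R) as group means, each read from its own probe set. Since head had no signal above 4, no fold against head is given.

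At 48 h, 5 of the 13 had risen in body and 0 had fallen, when 29.8% of all features rose. All 13 differences were above 0, from 0.40 to 0.82, with a median of 0.61 against 0.10 over all features. At 24 h none of the 13 passed in limma, 1 had an unadjusted p under 0.05, and 12 were above 0 (median 0.27). Prosalpha6T, the paralog of Prosalpha6, ran from 10.24 to 10.53 at 0 h and from 10.80 to 11.28 at 48 h. It rose by 0.59 ± 0.17 (adjusted p = 0.0119 in limma) without overlap of the arrays, while Prosalpha6 itself fell.

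Prosalpha4T2 rose by 0.79 ± 0.27 (adjusted p = 0.0291 in limma), from 8.51 to 8.76 at 0 h and from 9.21 to 9.59 at 48 h, while Prosalpha4 fell. Rpn12R rose by 0.61 ± 0.16 (adjusted p = 0.00888), Rpn13R by 0.54 ± 0.18 (adjusted p = 0.026) and Rpt3R by 0.41 ± 0.15 (adjusted p = 0.0341). The others, Prosalpha3T (0.58), Prosalpha4T1 (0.82), Prosbeta2R1 (0.81), Prosbeta2R2 (0.67), Prosbeta4R1 (0.66), Prosbeta5R1 (0.70), Prosbeta5R2 (0.51) and Rpt4R (0.40), did not pass.

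The count of paralogs was 2 without replicate 2 at 0 h or replicate 1, 2 or 4 at 48 h, 10 without replicate 1 at 24 h, 0 with the 3′ minus 5′ covariate, and 2 under cyclic loess scaling or when dim probe sets were kept. The testis markers rose in the same arrays, as given above, and the part of testis content in the rise of the paralogs was not tested.

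**Figure D4:**
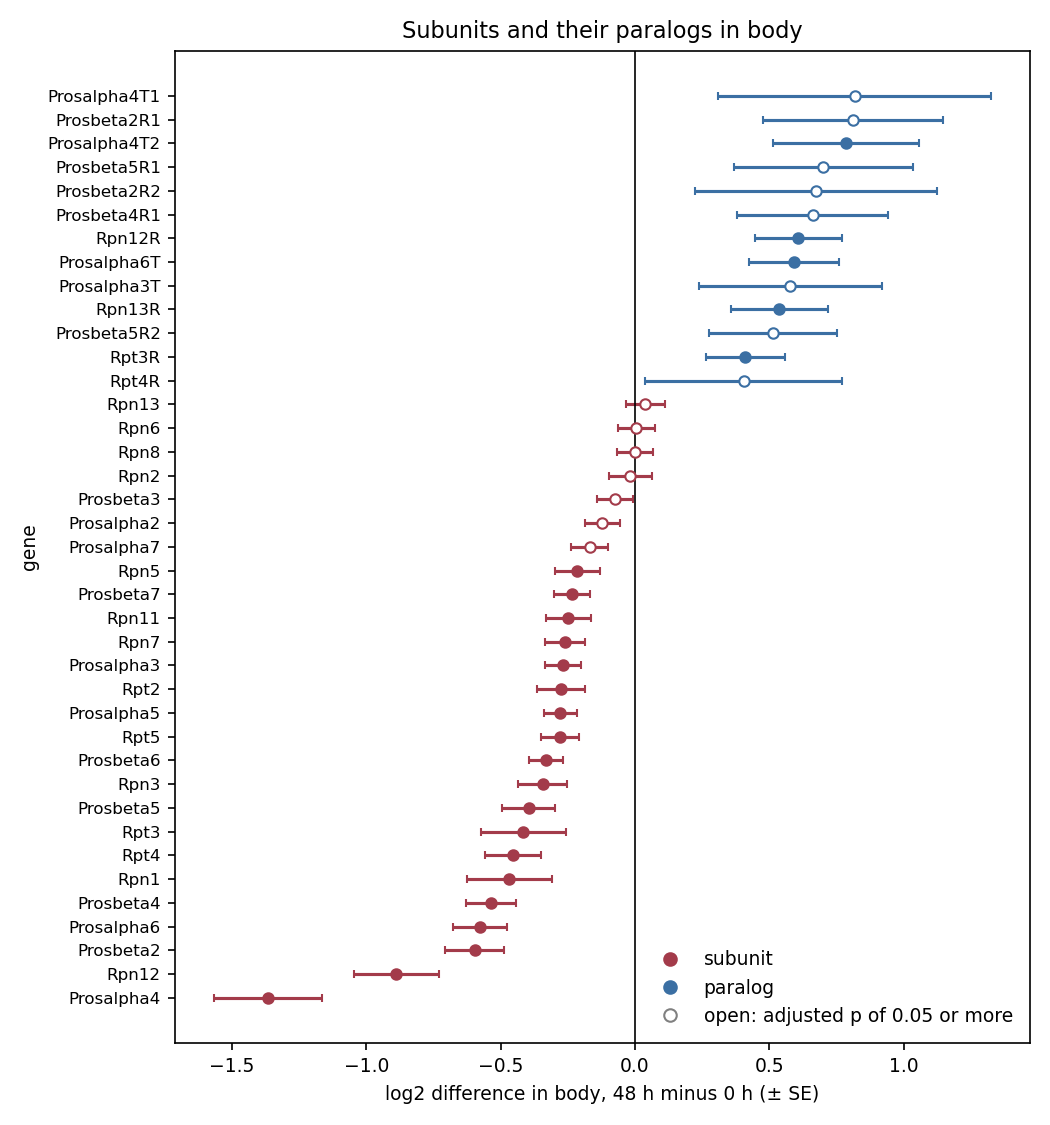
Log2 difference in body at 48 h against 0 h (horizontal axis, ± SE from limma) for the 26 subunits and the 13 tested paralogs (rows). Filled points are past an adjusted p of 0.05: the paralogs all lie above 0, from 0.40 to 0.82, and the subunits run from -1.37 to 0.04.

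In head most of the subunits that fell belonged to the core. At 24 h, 5 subunits had fallen and 0 had risen, when 9.70% of all features fell. At 48 h, 5 had fallen, when 12.3% of all features fell. From 24 to 48 h no subunit passed (1.37% of all features did), and 0 had an unadjusted p under 0.05 in limma. All 12 measured core subunits were below 0 at both times. At 48 h the alpha ring had a median of -0.42 and the beta ring of -0.33, against 0.02 for the base ATPases, 0.13 for the base non-ATPases, -0.06 for the lid and 0.08 for all features.

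Prosalpha5 had the largest called fall in head. It measured 11.23, 11.18, 11.46, 11.17 and 10.66 at 0 h, 10.67, 10.26, 10.92, 10.64 and 10.15 at 24 h, and 10.41, 10.76, 10.44 and 10.18 at 48 h. Replicate 5 at 0 h lay among the fasted arrays, and the other 4 at 0 h lay above all of them. The fall was 0.62 ± 0.17 at 24 h (adjusted p = 0.0282 in limma) and 0.69 ± 0.19 at 48 h (adjusted p = 0.0153). The 24 h call was lost without replicate 1, 2, 3 or 4 at 0 h or 2 or 5 at 24 h (adjusted p up to 0.0765) and when dim probe sets were kept (0.0652), and the 48 h call without replicate 4 at 48 h (0.0561).

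Prosbeta2 measured 12.82, 12.64, 12.74, 12.58 and 12.63 at 0 h, 12.48, 12.38, 12.27, 12.26 and 12.46 at 24 h, and 12.34, 12.34, 12.32 and 12.45 at 48 h. Neither fasted group overlapped 0 h. It fell by 0.31 ± 0.08 at 24 h (adjusted p = 0.0136 in limma) and by 0.32 ± 0.08 at 48 h (adjusted p = 0.0108), and the 48 h call held in every alternative tried. Prosbeta5 differed by -0.36 ± 0.19 and -0.27 ± 0.20, with wider standard errors, and neither passed (adjusted p = 0.192 and 0.324 in limma). Prosbeta2 and Prosbeta5 were not tested against each other.

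Rpn11 was the 1 lid subunit that fell in head. It measured 12.24, 12.10, 12.43, 12.11 and 11.79 at 0 h, 11.56, 11.47, 11.97, 11.81 and 11.24 at 24 h, and 11.57, 11.90, 11.67 and 11.42 at 48 h. Replicate 5 at 0 h overlapped both fasted groups. Rpn11 fell by 0.52 ± 0.15 at 24 h (adjusted p = 0.0314 in limma) and by 0.49 ± 0.16 at 48 h (adjusted p = 0.0399). The 24 h call was lost without replicate 1, 2, 3 or 4 at 0 h or 1, 2 or 5 at 24 h (adjusted p up to 0.085). The 48 h call was lost without replicate 1, 2, 3 or 4 at 0 h, 1 at 24 h or 1, 3 or 4 at 48 h (adjusted p up to 0.124). It was also lost with the 3′ minus 5′ signal as a covariate (0.0665), when dim probe sets were kept (0.0814) and without the set-aside array (0.0593), and the 24 h call when they were kept (0.0668) and without that array (0.0514).

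Prosalpha7 fell at 24 h by 0.60 ± 0.13 (adjusted p = 0.00727 in limma), from 11.21, 11.05, 11.36, 10.97 and 10.68 to 10.39, 10.32, 10.75, 10.54 and 10.27. Only replicate 5 at 0 h and replicate 3 at 24 h overlapped. Prosbeta4 fell by 0.35 ± 0.09 at 24 h (adjusted p = 0.0218) and by 0.33 ± 0.10 at 48 h (adjusted p = 0.0289), and Rpt2 by 0.25 ± 0.08 at 48 h (adjusted p = 0.0406). The Prosbeta4 calls were lost without replicate 1, 3 or 4 at 0 h at either time, without 4 or 5 at 24 h, and without 2, 3 or 4 at 48 h (adjusted p up to 0.0614 at 24 h and up to 0.0862 at 48 h). The 48 h call was also lost with the 3′ minus 5′ signal as a covariate (0.0943).

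Prosbeta6 had the most negative difference in head at both times, -0.69 and -0.79, but its arrays spread from 10.76 to 12.17 at 0 h and it did not pass; it was singled out after its values were seen. The probe set shared by Prosalpha1 and Prosalpha1R fell by 0.62 ± 0.18 and 0.69 ± 0.20 in head (adjusted p = 0.0333 and 0.0199 in limma).

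RNA quality differed along with the core rings in head. The 3′ minus 5′ signal had a median of 3.33 at 0 h, 4.71 at 24 h and 5.11 at 48 h. It was highest at 0 h in replicate 5 (5.18), the array with the lowest alpha ring mean of its group (10.70). It was highest at 24 h in replicate 5 (6.83) and at 48 h in replicate 4 (7.28), whose alpha ring means of 10.35 and 10.48 were again the lowest of their groups. The base non-ATPases had their highest 0 h mean (11.06) in that same replicate 5. With this signal as a covariate, 5 subunits fell in head at 24 h and 3 at 48 h. Of the calls lost with it at 48 h, Rpn11 then differed by -0.23, against -0.49 without it. Prosbeta4 differed by -0.26, a smaller fall than given above. The sizes for the other subunits with the covariate are not given here.

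With the pool as a replicate block, 12 subunits fell in head at 24 h and 13 at 48 h. The shares of all features that fell with the block are not given here. The counts without the block rested on single arrays. Without replicate 5 at 0 h they were 10 and 11, and without replicate 1, 3 or 4 at 0 h they were 2 at both times. The 24 h count was also 2 without replicate 5 at 24 h. The 48 h count was 2 without replicate 3 or 4 at 48 h, and 3 without replicate 1 at 24 h. Without head replicate 2 at 0 h, the set-aside array, they were 4 and 5. This left a difference in gut markers between times. Their sums ran from 10.5 to 39.6 on the other head arrays at 0 h, from 43.7 to 52.0 at 24 h and from 26.5 to 45.6 at 48 h. The part of gut transcripts in the head results was not tested.

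In palp 5 subunits fell at 24 h, and 2 base subunits had risen by 48 h. At 24 h, 5 subunits had fallen and 0 had risen, when 12.5% of all features fell. They were Prosalpha5, Rpn11, Prosalpha7, Prosalpha3 and Prosbeta4. Their 24 h arrays lay below every 0 h array, but the 5 were picked by a test on the same arrays, so this adds no separate support. All 12 core subunits were below 0 at 24 h, with medians of -0.33 for the alpha ring and -0.24 for the beta ring, while all 3 base non-ATPases were above 0 (median 0.10). The median over all features was -0.02.

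Prosalpha5 in palp measured 12.25, 12.28, 12.37, 12.12 and 12.19 at 0 h, 12.00, 11.97, 11.91, 11.91 and 11.51 at 24 h, and 11.71, 12.16, 12.10 and 12.12 at 48 h. The 24 h arrays were all lower than at 0 h, and 3 of the 4 at 48 h were above all 24 h arrays. The fall at 24 h was 0.38 ± 0.11 (adjusted p = 0.0258 in limma), a call lost without replicate 3 at 0 h or 5 at 24 h (adjusted p up to 0.0649) or without the 5 set-aside arrays (0.0563). Rpn11 fell by 0.36 ± 0.09 (adjusted p = 0.01), from 12.81, 12.69, 12.96, 12.78 and 12.88 to 12.53, 12.45, 12.46, 12.59 and 12.29, and held without any single array.

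Prosalpha3 fell by 0.32 ± 0.08 (adjusted p = 0.00799 in limma) and Prosalpha7 by 0.35 ± 0.11 (adjusted p = 0.0308). The Prosalpha7 call was lost without replicate 1, 2 or 3 at 0 h or 2, 3 or 5 at 24 h (adjusted p up to 0.0811) and without the 5 set-aside arrays (0.105). It was also lost with the 3′ minus 5′ signal as a covariate (0.0714) and when dim probe sets were kept (0.0505). The catalytic Prosbeta2 and Prosbeta5 did not pass in palp; Prosbeta5 differed by -0.22 ± 0.10 at 24 h (adjusted p = 0.125) and -0.08 ± 0.11 at 48 h (adjusted p = 0.629).

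At 48 h, 2 subunits had risen and 1 had fallen in palp, when 17.4% of all features rose and 15.7% fell, so the share of subunits called was below that of all features. Prosalpha4 measured 10.40, 9.45, 10.00, 9.55 and 9.63 at 0 h, 9.25, 9.41, 9.52, 9.40 and 9.10 at 24 h, and 8.95, 9.37, 9.16 and 9.12 at 48 h. All 48 h arrays were below all 0 h arrays, and the fall was 0.65 ± 0.17 (adjusted p = 0.0109 in limma).

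Rpn13 measured 11.58, 11.45, 11.50, 11.66 and 11.90 at 0 h, 11.87, 11.77, 11.75, 11.68 and 11.70 at 24 h, and 12.18, 12.02, 11.90 and 11.93 at 48 h. The highest array at 0 h met the lowest at 48 h, and the rise was 0.39 ± 0.10 (adjusted p = 0.0085 in limma). Rpn2, the scaffold of the base, rose by 0.35 ± 0.09 (adjusted p = 0.0114), from 11.91, 11.75, 11.99, 12.06 and 12.16 to 12.47, 12.37, 12.18 and 12.27, without overlap. These 3 calls held in every alternative tried.

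Muscle markers differed in the same palp arrays. Act88F rose by 0.91 ± 0.14 at 24 h and 0.50 ± 0.15 at 48 h, and up by 0.32 ± 0.07 and 0.27 ± 0.08, while TpnC4 did not pass (-0.20 and -0.44). The summed signal of these 3 markers ran from 31.1 to 32.1 at 0 h, from 32.2 to 33.8 at 24 h and from 31.5 to 32.9 at 48 h. Act88F also rose at 24 h in head (0.97 ± 0.17) and body (1.00 ± 0.27). The part of muscle content in the palp results was not tested.

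From 24 to 48 h no subunit passed in palp (4.22% of all features did), 8 had an unadjusted p under 0.05 in limma, and 25 of 26 differences were above 0 (median 0.17, against 0.05 over all features). Without replicate 2 at 24 h or 5 at 0 h, 1 subunit passed. The 24 h count was 3 without replicate 3 at 0 h or 5 at 24 h. The 48 h count was 5 (4 higher, 1 lower) with the pool as a replicate block and 7 without replicate 5 at 0 h. Replicate 5 at 24 h and replicate 1 at 48 h had the highest 3′ minus 5′ signals of their groups, 5.59 and 4.83, and the lowest alpha ring means, 11.52 and 11.53. At 0 h replicate 5 had the highest such signal (4.36) but an alpha ring mean of 11.93, above those of replicates 2 (11.89) and 4 (11.82). With this signal as a covariate, 7 subunits fell in palp at 24 h, and 2 rose and 2 fell at 48 h.

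**Figure D5:**
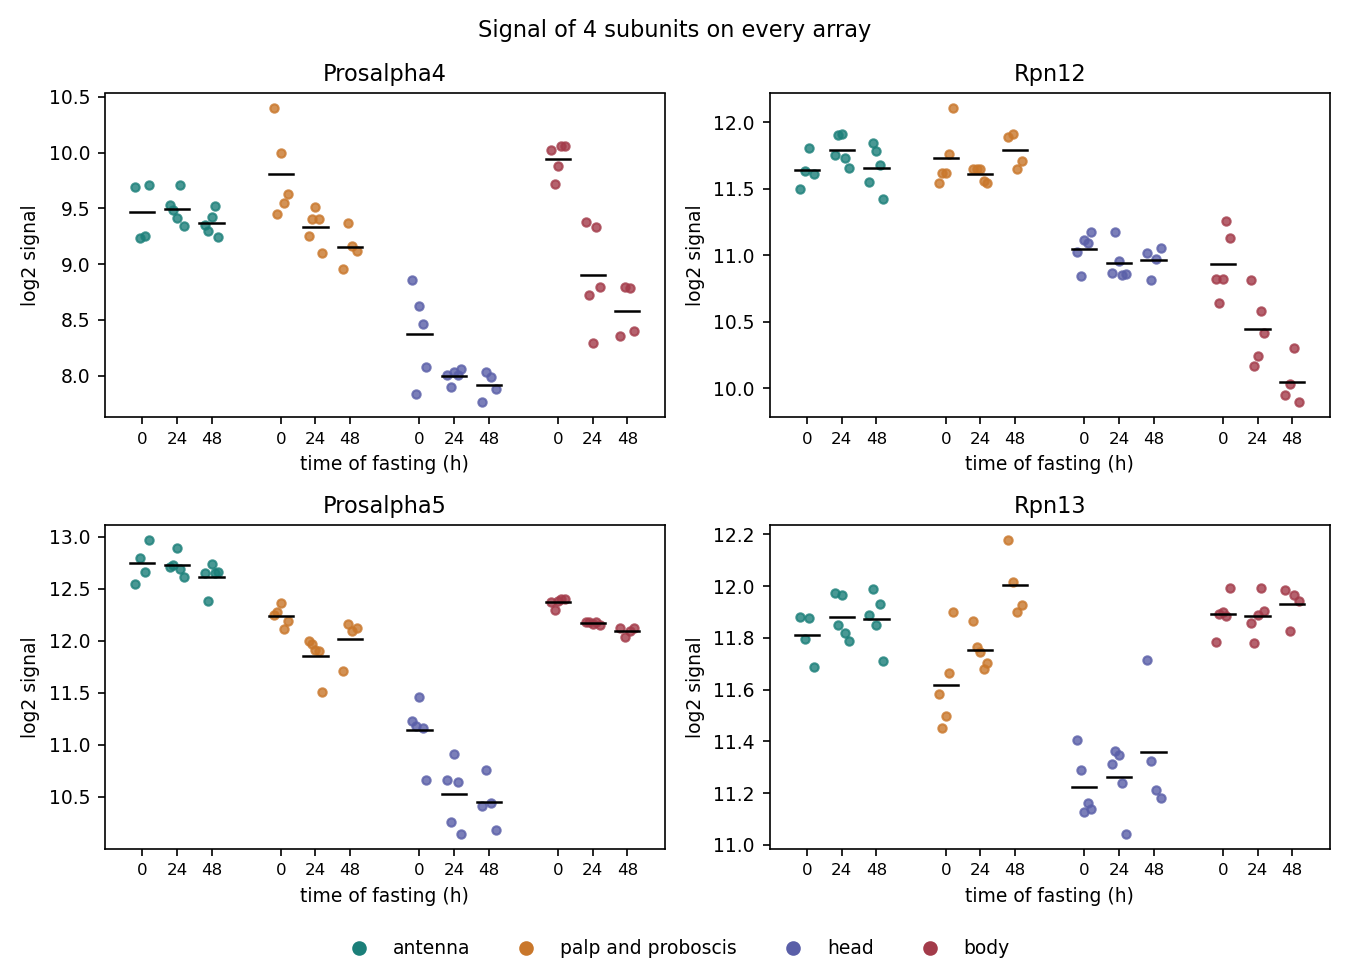
Log2 signal of Prosalpha4, Rpn12, Prosalpha5 and Rpn13 on every array (points, horizontal bars are group means) by body part and time of fasting. Prosalpha4 and Rpn12 step down in body (to 8.58 and 10.04 at 48 h), Prosalpha5 steps down in palp at 24 h, head and body, and Rpn13 is highest in palp at 48 h.

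In antenna no subunit passed at either time. At 24 h, when 5.73% of all features were called, the 26 differences ran from -0.13 to 0.25 with a median of 0.05. At 48 h, when 17.6% of all features were called, they ran from -0.25 to 0.19 with a median of 0.02. At neither time did any subunit have an unadjusted p under 0.05 in limma. From 24 to 48 h, when 0.100% of all features were called, no subunit passed, 1 had an unadjusted p under 0.05, and all 26 differences were below 0 (median -0.06).

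The antennal levels were tight. The mean of the 26 subunits ran from 12.10 to 12.32 over all 14 antenna arrays. Prosalpha4 measured 9.69, 9.23, 9.26 and 9.71 at 0 h and 9.35, 9.30, 9.42, 9.52 and 9.25 at 48 h, with full overlap. Prosbeta5 differed by -0.07 ± 0.08 and -0.09 ± 0.08 (adjusted p = 0.622 and 0.444 in limma), and Rpn11 by -0.07 ± 0.10 and -0.12 ± 0.10 (adjusted p = 0.734 and 0.444).

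Over the 8 comparisons with 0 h, Prosalpha5 and Prosbeta4 were called most often, 5 times each and always lower, and Prosbeta2 and Rpn11 4 times each. Another 4 subunits were never called, 10 were called once, 6 called 2 times and 2 called 3 times. Prosalpha2 was among those never called. It measured 13.53, 13.40, 13.47, 13.55 and 13.48 in body at 0 h and 13.36, 13.33, 13.38 and 13.39 at 48 h.

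Whether the 48 h change differed from that in head was tested in 1 fit over all 56 arrays. In body, 6 subunits changed further downwards than in head, when 9.21% of all features did. They were Prosalpha4 (-0.91 ± 0.24, adjusted p = 0.00546 in limma), Rpn12 (-0.80 ± 0.17, adjusted p = 0.000302), Rpn1 (-0.77 ± 0.25, adjusted p = 0.0222), Rpt3 (-0.46 ± 0.16, adjusted p = 0.0335), Rpt4 (-0.44 ± 0.12) and Prosalpha6 (-0.43 ± 0.13).

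Rpn1 shows the contrast in its levels. Its mean in body was 9.95 at 0 h and 9.49 at 48 h, and in head 9.97 and 10.26. Rpn12 in head measured 11.02, 10.84, 11.11, 11.09 and 11.18 at 0 h and 11.01, 10.82, 10.97 and 11.05 at 48 h, with overlap, while every body array at 48 h had dropped below the body arrays of 0 h. The probe set shared by Prosalpha1 and Prosalpha1R differed upwards in body against head, by 0.55 ± 0.19 (adjusted p = 0.0321).

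The count in body was 3 without head replicate 4 at 48 h, and 9 with the pool as a replicate block. The Rpn1 call was lost without replicate 2 at 0 h or 4 at 48 h of head or replicate 1 at 48 h of body (adjusted p up to 0.0835). The Rpt3 call was lost without those arrays or replicate 2 or 4 at 48 h, or 4 or 5 at 0 h, of body (adjusted p up to 0.106), under cyclic loess scaling (0.0567) and without the 5 set-aside arrays (0.0547).

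In palp, 1 subunit differed from head in its 48 h change, when 2.34% of all features were higher. It was Prosalpha2 (0.40 ± 0.10, adjusted p = 0.00859 in limma), whose own change passed in neither part. Without replicate 5 at 0 h of head or of palp the count was 2. In antenna, 6 subunits had an unadjusted p under 0.05 in limma, for which no share of all features is given. The count called as different from head was 0, when 4.39% of all features were called. That count was 3 with the pool as a replicate block, 1 without antenna replicate 1 at 0 h, head replicate 1 at 48 h, palp replicate 1 at 48 h or body replicate 3 at 48 h, 2 without antenna replicate 2 at 48 h, antenna replicate 4 at 0 h or head replicate 2 at 48 h, and 4 without head replicate 5 at 0 h. So a difference of the antenna from the head was not shown for any subunit in the test as planned.

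The differences of the subunits were set side by side across parts. Across the 26 subunits, the differences of palp and head correlated with r = 0.91 at 24 h and 0.83 at 48 h, against 0.71 and 0.76 over all features tested in both. Antenna and head gave 0.84 and 0.80, against 0.60 and 0.65. Head and body gave 0.05 and 0.18, against 0.44 and 0.61. These are descriptions across genes, which are not independent replicates, and although no array is shared, the parts share fly pools and scaling. The 3′ minus 5′ signal also differed between times in palp and head, and its part in this likeness was not tested.

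Genes that act with the proteasome were read from lists. At 48 h the shares of all features that fell were 21.0% in body, 12.3% in head and 15.7% in palp. Of 13 measured assembly factors and accessory proteins, 5 fell and 1 rose in body (median -0.10), 3 fell in head (median -0.16), 1 fell in palp and 0 passed in antenna. CG12321 fell in body (0.67 ± 0.09) and head (0.80 ± 0.27, adjusted p = 0.0461 in limma) at 48 h, as did CG13319, by 0.71 ± 0.14 and 0.55 ± 0.13. Uch-L5, a deubiquitinase that docks on Rpn13, fell at 48 h in head (0.65 ± 0.18) and palp (0.52 ± 0.18), the part in which Rpn13 rose.

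Sem1, a small lid protein, fell by 0.28 ± 0.08 in body at 48 h, by 0.45 ± 0.10 in head at 24 h and by 0.23 ± 0.08 in palp at 24 h. Pomp, which helps to assemble the core, and REG, an alternative activator of the core, passed in none of the 8 comparisons. At 48 h the difference of Pomp was 0.09 ± 0.10 in antenna and -0.27 ± 0.10 in palp. It was 0.00 ± 0.18 in head and -0.12 ± 0.09 in body.

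The p97 unfoldase hands substrates to the proteasome. The list held 5 measured genes, cofactors together with the ubiquitin ligase Ufd4, while Ter94, the p97 gene itself, was not analysed here. One of them, p47, passed in none of the 8 comparisons with 0 h. Of the 5 genes, 4 rose in palp, 4 in head and 3 in body at 48 h, and 0 passed in antenna. The medians in that order were 0.30, 0.38, 0.35 and 0.13. At that time 17.4% of all features rose in palp, 13.2% in head and 29.8% in body. The ubiquitin-binding cofactor casp rose by 0.30 ± 0.09 in palp, 0.38 ± 0.09 in head and 0.35 ± 0.08 in body. Ufd4, a ubiquitin ligase, rose by 0.30 ± 0.08, 0.36 ± 0.12 and 0.44 ± 0.12, and CG8892 by 0.74 ± 0.10, 0.41 ± 0.12 and 0.39 ± 0.10.

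Of 9 measured genes for ubiquitin and its conjugation, 3 rose in body and 1 in palp at 48 h, and 0 passed in head and antenna. The count in body is near the share of all features that rose (29.8%), and that in palp is below it (17.4%). The conjugating enzyme Ubc6 rose by 0.58 ± 0.11 in body and 0.61 ± 0.12 in palp. The polyubiquitin gene Ubi-p63E rose by 0.19 ± 0.07 in body (adjusted p = 0.0431 in limma), and the conjugating enzyme vih by 0.57 ± 0.15.

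Of 6 regulators, 3 rose in body and 1 in each other part at 48 h. Of all features 29.8% rose in body, 17.4% in palp and 13.2% in head, so the counts in palp and head are near the background. In antenna 17.6% of all features were called, counting both directions. The transcription factor cnc, whose mammalian relative activates proteasome genes, rose in antenna (0.35 ± 0.09, adjusted p = 0.0169 in limma) but did not pass in palp (0.12 ± 0.10), head (0.21 ± 0.11) or body (0.08 ± 0.07). Its partner maf-S rose in palp (0.50 ± 0.11), head (0.42 ± 0.09) and body (0.32 ± 0.09). The transcription factor foxo, which acts when insulin signalling is low, rose in body by 0.58 ± 0.18, and rngo by 0.32 ± 0.11.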

How the data were processed

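RNA was isolated on Qiagen RNeasy columns and made into biotin-labelled cDNA with NuGEN Ovation V2 kits, per the labels. The deposited values are log2 signals made by the authors with GCRMA, per the submitters' processing notes (version not given in the sources). The sorted values of the arrays differed by at most 0.033. The array held 18952 probe sets; 183 controls were left out, and 4720 with no gene and 402 with several were kept unnamed. Where several probe sets named 1 gene, the one with the highest mean was kept, which left 17104 features. One body array at 48 h whose title and source name differ in number was named by its title.

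Tests used limma 3.58.1 in R 4.3.3: 3 group means per body part, the 0 h arrays for unfasted differences, and 12 group means over 56 arrays for differences between parts. The procedure was tested on simulated data. Figures used matplotlib 3.10.9 in Python 3.11.15. The members and lists were chosen with earlier results of these data known. Genes were named when called with the largest difference (up to 4 per comparison), called most often, or fixed by role (Prosbeta2, Prosbeta5, Rpn11, Ubi-p63E, cnc, Pomp, REG); other values are given as single examples.

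The labels' pool numbers pair the arrays across times. For arrays of a pool the mean residual correlation was 0.12 (antenna), 0.13 (palp), 0.20 (head) and 0.11 (body), against -0.02, -0.03, -0.04 and -0.02 for others. Pool 9 gave only 0 h arrays and pool 7 none. The number of arrays limits the precision.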

Additional observations from a re-analysis of the deposited data

Results flagged for a closer look

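Single arrays stood apart from their group in 10 of the 216 gene-by-group sets and group means examined, where chance gives about 1 in 20. The mean of the 26 subunits was high on body replicate 3 at 48 h (11.8). Prosalpha2 was low on head replicate 5 at 24 h (12.6). Prosalpha5 was low on antenna replicate 2 at 48 h (12.4), palp replicate 5 at 24 h (11.5), palp replicate 1 at 48 h (11.7) and body replicate 2 at 0 h (12.3). Prosalpha7 was high on antenna replicate 4 at 0 h (12.3). Rpn1 was low on antenna replicate 1 at 24 h (10.1), palp replicate 1 at 24 h (10.2) and body replicate 1 at 0 h (9.43).

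The 48 h change differed between parts, by the test of the difference in limma, for 7 subunits. Against head, Prosalpha2 differed by 0.40 in palp. In body, Prosalpha4 differed by -0.91, Rpn12 by -0.80, Rpn1 by -0.77, Rpt3 by -0.46, Rpt4 by -0.44 and Prosalpha6 by -0.43.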

How the results depend on the processing

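No direction reversed among the 40 named gene results. These were picked as called with the largest differences, so a reversal was unlikely from the start and this says little of the other subunits. Other subunits did change direction between unfasted body and head. There 5 of the 26 differences were below 0. Most of these were above 0 under cyclic loess scaling, by the counts given earlier. The count of called subunits moved as follows, and the shares of all features called in the same settings are not given here. A higher count is therefore not read as a stronger fall. At 24 h in palp it was 8 under cyclic loess scaling, 8 in a single fit of all parts and 9 with array weights, and 3 to 6 with 1 array left out. At 48 h in palp it was 5 with the pool as a replicate block, 7 with array weights, and 3 to 7 with 1 array left out. From 24 to 48 h in palp it was 8 with array weights and 1 each with no filter on dim probe sets, cyclic loess, a single fit, the 3′ minus 5′ covariate or without the set-aside arrays, and 0 to 1 with 1 array left out. At 24 h in head it was 3 with no filter, 12 with the replicate block, 11 in a single fit and 12 with array weights, and 2 to 10 with 1 array left out. At 48 h in head it was 8 under loess, 13 with the block, 10 in a single fit, 16 with array weights (1 of them higher) and 3 with the covariate, and 2 to 11 with 1 array left out. At 24 h in body it was 17 under loess and 17 with array weights, and 2 to 11 with 1 array left out; at 48 h it was 12 in a single fit and 12 with the covariate. From 24 to 48 h in body it was 1 with no filter, 3 in a single fit and 1 with array weights, and 0 to 1 with 1 array left out. The paralogs in body at 48 h numbered 2 with no filter, 2 under loess, 11 in a single fit, 9 with array weights and 0 with the covariate, and 2 to 10 with 1 array left out. The 48 h change of antenna against head gave 3 with no filter, 3 under loess and 3 with the block, and 0 to 4 with 1 array left out; palp against head gave 1 to 2 and body against head 3 to 9. The causes were not tested. Cyclic loess, which moved the median of all features by -0.10 in body at 48 h and by 0.81 between unfasted body and head, and leaving out the 5 set-aside arrays bore on counts as given; the latter was chosen after seeing the data. Of 40 named gene results, 249 values under other settings kept their call and 15 lost it, and 668 and 62 did so with 1 array left out. The block changed no other count by more than 1.5 times.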
